A study of Mus musculus with 14 samples.

Results

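Genes of lectin receptors on myeloid cells were followed in CD11b+ cells of the mouse brain after traumatic brain injury (TBI). They were chosen by name, 10 of the 33939 genes in the deposited table, and each symbol matched a single Ensembl identifier. They comprise 4 Siglec genes (*Siglec1*, *Siglece*, *Siglecf* and *Cd33*) and 6 C-type lectin receptor genes (*Clec4a1*, *Clec4d*, *Clec4e*, *Clec4n*, *Clec5a* and *Clec12a*). All 10 passed the filter on low values in every comparison.

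The mice were C57BL/6 males aged 8 to 12 weeks that carried *Cx3cr1-CreER+/-*, either alone (Ctrl) or with a floxed target gene (cKO), and all of them, Ctrl included, had received tamoxifen and a controlled cortical impact. At 3 days post-TBI, CD11b+ cells were taken by magnetic sorting from the contralateral, non-lesion (CL) and the ipsilateral, lesion (IL) hemisphere of the same injured mice, and their RNA was sequenced. The libraries carry 8 mouse numbers, with 4 libraries for each hemisphere of Ctrl and 3 for each hemisphere of the cKO. Of these numbers, 6 gave both hemispheres (Ctrl 3541, 3545, 3546 and 3551, and cKO 791 and 3592), while cKO 788 gave a CL library and cKO 784 an IL library only, and the labels do not settle whether these are different animals. The Cre is driven by *Cx3cr1*, which circulating monocytes use too, and the study left an interval between tamoxifen and injury in which those monocytes are replaced. The CD11b sort also admits monocytes, neutrophils and eosinophils, so the libraries hold a mixture of cells. No uninjured mouse entered, so CL stands for the other side of an injured brain.

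Siglecs are membrane lectins that bind sialic acid, the sugar that caps most glycans of the body's own cells. Most of them carry inhibitory motifs that recruit the phosphatases encoded by *Ptpn6* and *Ptpn11*, and they restrain microglia and macrophages when they meet sialylated surfaces. The C-type lectin receptors examined here include activating members, which signal through the short adaptors *Fcer1g* or *Tyrobp* and the kinase *Syk*. They also include inhibitory members, which carry inhibitory motifs like the Siglecs. On myeloid cells they detect fungal and mycobacterial sugars as well as material from dying cells.

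Expression is given in CPM, reads per 1e+06 reads assigned to genes. Homeostatic microglia markers (5 genes, among them *P2ry12* and *Tmem119*) summed to 9216 to 13358 CPM in the CL and 4399.5 to 6009 CPM in the IL libraries, whereas 5 T and NK cell and 3 neuron markers summed to at most 5.12 and 2.54 CPM in any library. Between these, the markers of border-associated macrophages (5 genes) summed to 92.6 to 426 CPM, those of oligodendrocytes (3) to 49.3 to 144 CPM, of endothelial cells (3) to 48.2 to 149.5 CPM, of dendritic cells (5) to 13.5 to 63.1 CPM and of astrocytes (3) to 13.7 to 61.0 CPM. Depth, estimated from the smallest step between CPM values, was 12.2 to 41.6 M reads per library, with the Ctrl IL library of mouse 3546 the shallowest. That library stood apart in the adaptors of the activating receptors, with *Tyrobp* at 162 CPM and *Fcer1g* at 147 CPM whereas the remaining Ctrl IL libraries had at least 801 and 739 CPM. In bulk RNA, fewer cells of a type and less RNA per cell cannot be told apart.

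The genes lie on 3 chromosomes of GRCm38. *Siglec1* is on chromosome 2 (chr2:131069220-131086765), and *Siglecf* (chr7:43351341-43359531), *Cd33* (chr7:43524216-43544428) and *Siglece* (chr7:43651070-43660161) share a stretch of chromosome 7. The C-type lectin receptors are all on chromosome 6. *Clec4a1* (chr6:122921848-122934619), *Clec4n* (chr6:123229843-123247021), *Clec4d* (chr6:123262111-123275265) and *Clec4e* (chr6:123281789-123289870) belong to the *Clec4* cluster, with *Clec4n*, *Clec4d* and *Clec4e* next to each other within 60.03 kb. *Clec5a* (chr6:40574894-40585821) and *Clec12a* (chr6:129342691-129365303) lie elsewhere on that chromosome. None of the 10 overlaps another gene of the annotation, and at most 1.33% of the stretches of 50 bases in a member's transcripts occur in a transcript of another gene.

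RefSeq promoters (GRCm38.p6, 250 bases before to 50 after the start) were found for 8 of the 10 genes, without *Siglec1* and *Clec4n*. The windows of *Cd33* and *Clec12a* lie wholly inside the gene extents given above, so their RefSeq start is not the outermost annotated start. The core of the binding site of PU.1, the lineage factor of myeloid cells, was searched as GAGGAA on both strands. It is in all 8 promoters, against 28.3% of 32851 promoters of that length. The promoters of a pair of neighbours that rose together in the IL hemisphere, *Clec4d* (chr6:123261857-123262156, plus strand) and *Clec4e* (chr6:123289822-123290121, minus strand), and of *Siglece* (chr7:43660112-43660411, minus strand), which fell, are shown with this core in capitals on either strand (TTCCTC being its reverse).
Clec4d: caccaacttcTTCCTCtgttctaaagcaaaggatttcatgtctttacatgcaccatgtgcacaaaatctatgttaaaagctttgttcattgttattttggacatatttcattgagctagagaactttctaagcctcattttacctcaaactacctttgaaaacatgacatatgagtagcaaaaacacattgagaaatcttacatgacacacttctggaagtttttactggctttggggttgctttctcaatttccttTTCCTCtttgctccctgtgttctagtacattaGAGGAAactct
Clec4e: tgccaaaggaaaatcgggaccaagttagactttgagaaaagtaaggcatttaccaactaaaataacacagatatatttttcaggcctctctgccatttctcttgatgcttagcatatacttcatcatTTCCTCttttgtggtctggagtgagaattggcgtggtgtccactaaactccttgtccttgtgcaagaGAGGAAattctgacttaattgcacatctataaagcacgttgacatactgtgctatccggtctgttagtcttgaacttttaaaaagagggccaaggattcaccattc
Siglece: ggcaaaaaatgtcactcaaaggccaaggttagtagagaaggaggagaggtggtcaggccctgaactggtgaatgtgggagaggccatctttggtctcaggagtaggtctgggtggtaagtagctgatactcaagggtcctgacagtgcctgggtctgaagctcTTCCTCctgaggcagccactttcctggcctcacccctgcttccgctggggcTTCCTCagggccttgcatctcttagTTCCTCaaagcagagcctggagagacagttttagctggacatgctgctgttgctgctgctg
The core occurs 3 times in the *Clec4d*, 2 times in the *Clec4e* and 3 times in the *Siglece* window. It is therefore in members that rose as well as in a member that fell. An AP-1 site, searched as TGANTCA (its own reverse), was present in *Clec12a* alone among the 8 (7.81% of all promoters), and a C/EBP site, searched as TTGCNNAA on both strands, in *Clec4e* and *Clec12a* (10.8%).

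The promoters of *Siglecf* (chr7:43351091-43351390, plus strand) and *Cd33* (chr7:43533122-43533421, minus strand), 2 Siglec genes of the same stretch that were lower in IL within each mouse, share 3 runs of at least 12 bases, shown in capitals.
Siglecf: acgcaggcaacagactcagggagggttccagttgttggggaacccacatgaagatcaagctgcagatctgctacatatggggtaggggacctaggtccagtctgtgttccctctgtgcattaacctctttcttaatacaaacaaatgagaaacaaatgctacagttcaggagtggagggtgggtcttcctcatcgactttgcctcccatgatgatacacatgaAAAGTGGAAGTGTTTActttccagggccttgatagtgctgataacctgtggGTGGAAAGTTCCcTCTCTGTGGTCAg
Cd33: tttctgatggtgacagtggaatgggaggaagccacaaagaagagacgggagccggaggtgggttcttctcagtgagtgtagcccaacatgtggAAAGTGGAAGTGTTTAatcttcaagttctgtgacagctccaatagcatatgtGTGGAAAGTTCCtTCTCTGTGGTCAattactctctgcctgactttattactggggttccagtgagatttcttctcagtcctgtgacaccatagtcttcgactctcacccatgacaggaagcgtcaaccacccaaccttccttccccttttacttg
The longest run has 16 bases, the longest shared by any pair of the 8 promoters. The runs have the same order in both genes, and the longest begins 27 bases before the start in *Siglecf* and 157 bases before it in *Cd33*.

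**Figure D1:**
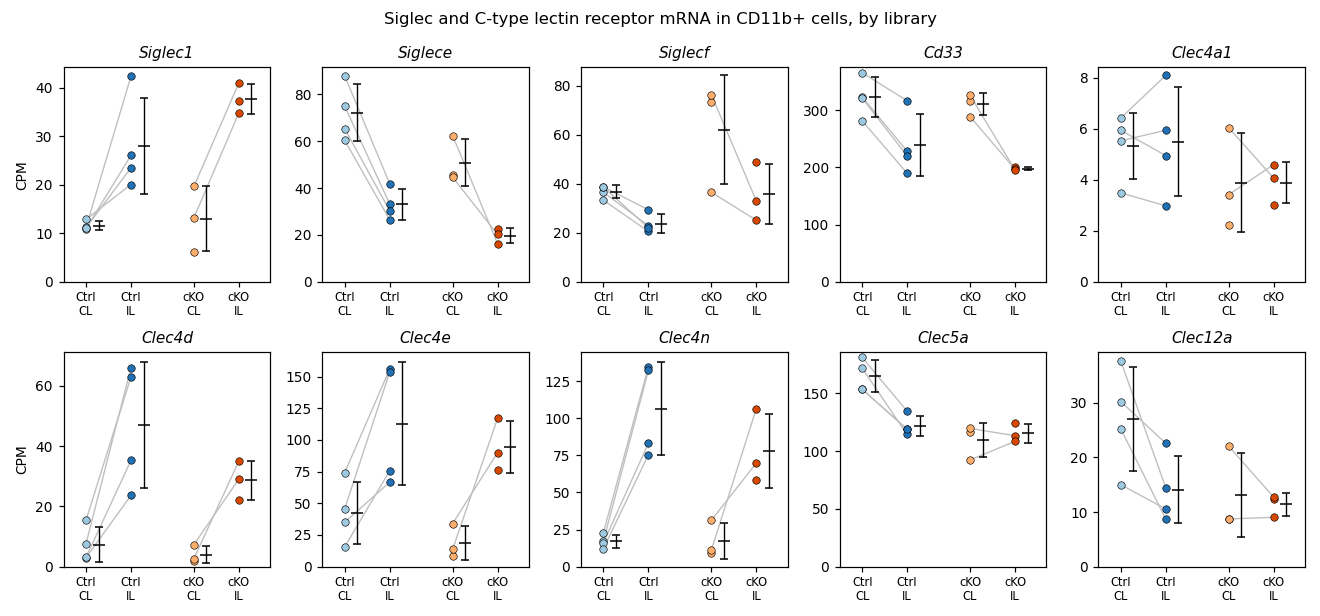
CPM of the 10 genes in each of the 14 libraries, with panels on separate linear axes from 0. Points are libraries, grey lines join the hemispheres of the same mouse, and bars give the mean ± SD of a group; *Clec4d*, *Clec4n* and *Siglec1* are higher in every IL than in every CL library of their genotype, and *Siglece* is lower.

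The first question was which receptors differed between the injured and the other hemisphere. In Ctrl, 4 of the 10 genes were called, with 3 higher and 1 lower in IL, against 6.58% of all 16376 genes tested (3.63% higher and 2.96% lower). Calls needed a 1.2-fold change or more and a Benjamini-Hochberg adjusted p from limma of no more than 0.05. In the cKO, 6 of 10 were called, with 4 higher and 2 lower, against 22.4% of 16758 genes (12.8% higher and 9.52% lower). The median log2 fold change was -0.15 over the 10 genes in Ctrl and 0.15 in the cKO, beside -0.04 and 0.02 over all genes tested. The groups did not overlap for 6 of 10 genes in Ctrl (17.7% of all genes) and for 6 of 10 in the cKO (42.4%).

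The hemispheres of the same mouse varied together, and with the mouse number as a block the Ctrl count became 9 of 10, with 4 higher and 5 lower, against 20.5% of all genes (9.81% higher and 10.7% lower). Only *Clec4a1* was not called. In the cKO, where 2 mice gave both hemispheres, the block gave 7 of 10, with 4 higher and 3 lower, against 13.5% of all genes (8.69% higher and 4.81% lower). The block fit used those mice only and left out the cKO libraries of mice 788 and 784. Where a cKO call changes with the block, the pairing and the smaller set of libraries cannot be told apart. The block thus more than doubled the Ctrl count, and it did so by adding calls, since each of the 4 calls without it was also a call with it.

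*Clec4n*, which encodes Dectin-2, an activating receptor for fungal mannans that signals through *Fcer1g*, changed by a large amount in both genotypes. It was at 23.0, 17.3, 16.1 and 12.2 CPM in the Ctrl CL libraries and at 135, 132, 83.1 and 75.4 CPM in the Ctrl IL libraries of mice 3541, 3545, 3546 and 3551, in that order here and below. Every IL library lay above every CL library. The log2 fold change was 2.62 ± 0.33 (SE, adjusted p = 0.0019). In the cKO it was at 9.52, 11.1 and 31.3 CPM in the CL libraries of mice 788, 791 and 3592, and at 58.3, 106 and 69.7 CPM in the IL libraries of mice 784, 791 and 3592, again in that order here and below. The groups did not overlap, although mouse 3592 had the highest CL value, and the log2 fold change was 2.34 ± 0.41 (adjusted p = 0.0068).

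*Clec4d* encodes MCL, which pairs with Mincle and binds mycobacterial glycolipid. Its Ctrl values were 15.4, 7.65, 2.97 and 3.11 CPM in CL and 62.9, 66.0, 23.6 and 35.3 CPM in IL. The ranges were apart, and mice 3541 and 3545 were the highest on both sides. *Clec4d* rose by 2.73 ± 0.56 on the log2 scale (adjusted p = 0.020). This call was lost, with adjusted p = 0.0568 to 0.0670, without the CL library of mouse 3546 or the IL library of mouse 3541 or 3545, and it held with the block at adjusted p = 0.00032. In the cKO, *Clec4d* was at 2.02, 2.66 and 7.32 CPM in CL and at 22.1, 35.0 and 29.0 CPM in IL. All IL values were higher, with a log2 fold change of 2.77 ± 0.36 (adjusted p = 0.0027).

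*Clec4e* encodes Mincle, an *Fcer1g*-coupled receptor for mycobacterial cord factor and for a ribonucleoprotein released by dead cells. In Ctrl it was at 74.3, 45.8, 35.1 and 15.7 CPM in CL and at 156, 154, 66.7 and 75.6 CPM in IL. The IL library of mouse 3546 lay below the CL library of mouse 3541, so the groups overlapped, but IL was higher within each mouse. Its log2 fold change of 1.54 ± 0.53 did not pass without the block (adjusted p = 0.123) and passed with it (adjusted p = 0.0033). In the cKO, values of 8.16, 13.7 and 34 CPM in CL stood against 76.5, 117 and 90.0 CPM in IL. The groups were apart, and the log2 fold change was 2.57 ± 0.42 (adjusted p = 0.0054).

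For *Clec4n*, *Clec4d* and *Clec4e* alike, IL was higher than CL in 6 of 6 mice that gave both, with log2 differences per mouse of 1.17 to 3.34, 1.88 to 3.47 and 0.93 to 3.20. The *Clec4* cluster holds 9 genes over 368 kb, and none of the others in it was called higher. *Clec4a1*, at the other end, encodes a member of the DCIR group, and it was low throughout, at 5.53, 5.94, 6.42 and 3.48 CPM in Ctrl CL and 5.95, 4.95, 8.10 and 2.98 CPM in Ctrl IL. It was at 2.21, 3.42 and 6.04 CPM in cKO CL and at 3.01, 4.60 and 4.07 CPM in cKO IL. These ranges overlap, and IL was higher in 3 of 6 mice. The log2 fold change was 0.06 in Ctrl (95% interval -0.62 to 0.73) and 0.13 in the cKO (-0.52 to 0.78). Of the genes between, named here for their position, *Clec4a3* was not called in either genotype, and *Clec4a2*, the inhibitory DCIR, fell by 0.89 in Ctrl (adjusted p = 0.016) and by 0.90 in the cKO (adjusted p = 0.033). *Clec4b1*, at a mean of 1.33 CPM in Ctrl CL, fell by 0.72 in Ctrl (adjusted p = 0.024) and was at -0.47 in the cKO (adjusted p = 0.19), while *Clec4a4* and *Clec4b2* were too low to be tested.

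**Figure D2:**
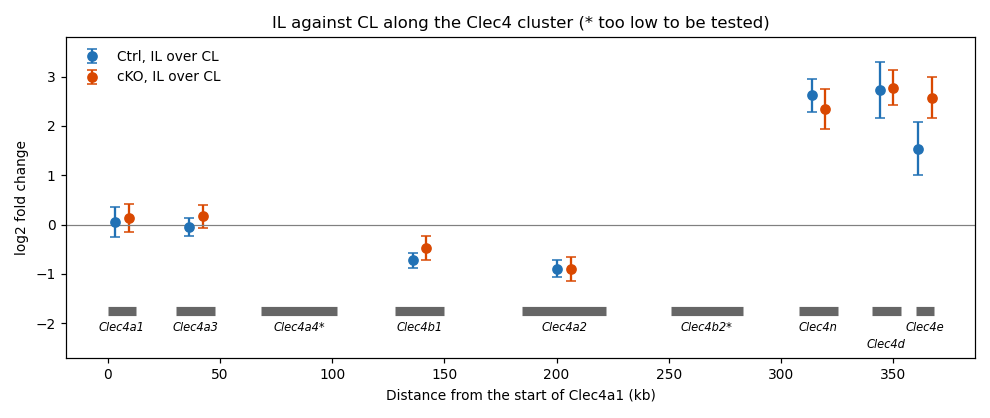
Log2 fold change of IL over CL (vertical axis) along the *Clec4* cluster, with grey bars for the extent of each gene in kb from the start of *Clec4a1* (horizontal axis). Points are Ctrl or cKO estimates with SE bars; *Clec4n*, *Clec4d* and *Clec4e* at the right end lie between 1.54 and 2.77, and the other tested genes lie between -0.90 and 0.17.

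The genes *Clec4d* and *Clec4e* are also used by neutrophils and monocytes, so markers of those cells are given beside them. The summed level of 6 neutrophil markers (*S100a8*, *S100a9*, *Ly6g*, *Retnlg*, *Mmp8* and *Ngp*) ranged from 422 to 5520 CPM in CL and from 129 to 754 CPM in IL of Ctrl, and from 405 to 1160 CPM in CL and from 171 to 260 CPM in IL of the cKO. No marker was at 0 in any library. The neutrophil sum was thus lower in IL than in CL in each of the 6 mice, while the 3 receptors were higher. Within CL, the Ctrl library with the highest neutrophil sum (mouse 3541) and the cKO library with the highest (mouse 3592, 1160 CPM) also had the highest *Clec4d*, *Clec4e* and *Clec4n* of their genotype. None of the 6 was called in Ctrl and 4 were called lower in the cKO, and with the block 6 and 5 were called lower. Of 5 infiltrating monocyte markers, *Ccr2* and *Vcan* were called higher in Ctrl and *Plac8* and *Vcan* in the cKO, and with the block *Ccr2* was also called higher in the cKO (0.78, adjusted p = 0.037). None was called lower, although *Ly6c2* (-1.03, adjusted p = 0.46, and 0.055 with the block) and *Chil3* (-0.69) were below 0 in Ctrl, and *Ly6c2* was lower in IL in each of the 4 Ctrl mice. Their sum ranged from 76.1 to 656 CPM in CL and from 119 to 307 CPM in IL of Ctrl, with 86.2 to 194 CPM and 136 to 198 CPM for the cKO. Within CL of their genotype, mice 3541 and 3592 had the highest of these sums too. The part of the sorted cell mixture in the receptor differences was not tested.

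**Figure D3:**
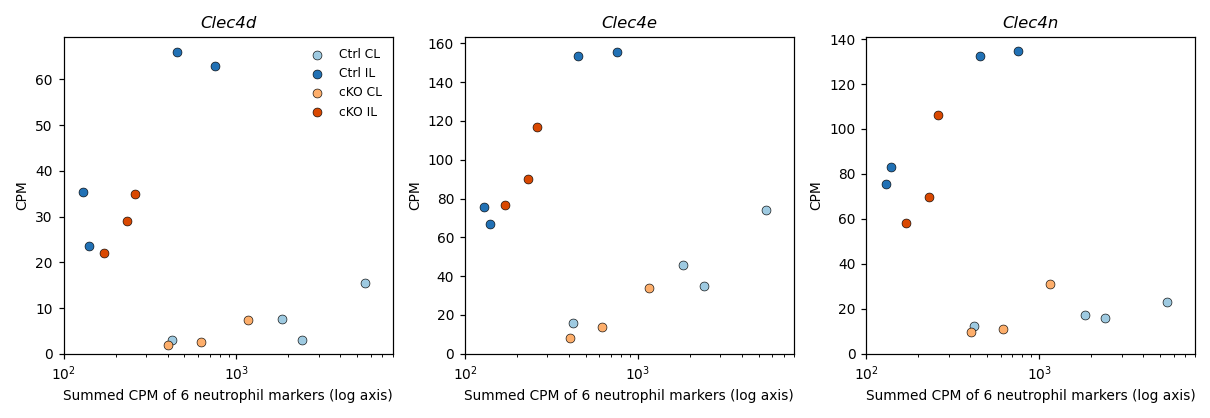
CPM of *Clec4d*, *Clec4e* and *Clec4n* (vertical axes, linear) against the summed CPM of 6 neutrophil markers (horizontal axis, log scale) in the 14 libraries. IL libraries (dark points) have neutrophil sums of 129 to 754 CPM, and the CL library with a neutrophil sum of 5520 CPM has less *Clec4d* and *Clec4n* than any IL library, but more *Clec4e* (74.3 CPM) than the Ctrl IL library of mouse 3546 (66.7 CPM).

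Of the 4 Siglec genes chosen, *Siglec1* was the one called higher. It encodes sialoadhesin, a macrophage adhesion receptor without an inhibitory motif that type I interferon induces. The Ctrl libraries had 10.96, 12.9, 11.3 and 11.1 CPM in CL and 26.1, 20.1, 42.4 and 23.5 CPM in IL. The CL values were close together, every IL value was above them, and the IL library of mouse 3546 was the highest. *Siglec1* rose by 1.22 ± 0.22 on the log2 scale (adjusted p = 0.010), and it was 1.07 without that library (adjusted p = 0.011). The markers of border-associated macrophages, which also use *Siglec1*, stood apart in the same library, with *Mrc1* at 184 CPM (42.7 to 62.3 in the other Ctrl IL libraries), *Lyve1* at 29.3 CPM (5.72 to 9.44) and *Cd163* at 48.6 CPM (2.503 to 12.7), while *Pf4* was the lowest there, at 21.5 CPM (95.6 to 132), and *Cbr2* lay among the others. Their sum was 199 to 426 CPM in CL and 208 to 316 CPM in IL of Ctrl, and 112 to 292 CPM in CL and 92.6 to 261 CPM in IL of the cKO, and its part in the *Siglec1* difference was not tested. In the cKO, *Siglec1* was at 6.23, 13.2 and 19.7 CPM in CL and at 37.2, 34.8 and 41.0 CPM in IL. All IL libraries were again higher, and the log2 fold change was 1.67 ± 0.31 (adjusted p = 0.0086).

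*Siglece*, an inhibitory Siglec of microglia and other myeloid cells, fell in both genotypes. It was at 74.9, 65.4, 87.9 and 60.4 CPM in Ctrl CL and at 33.3, 30.3, 41.9 and 26.5 CPM in Ctrl IL. The groups were apart, and the log2 differences per mouse in Ctrl were -1.07 to -0.98. *Siglece* fell by 1.04 ± 0.20 on the log2 scale (adjusted p = 0.014). In the cKO, values of 45.6, 44.7 and 62.4 CPM in CL stood against 22.4, 20.2 and 16.3 CPM in IL. Each IL value was lower than each CL value, and the log2 fold change was -1.24 ± 0.18 (adjusted p = 0.0039). The differences per mouse were wider apart there, at -0.91 in mouse 791 and -1.84 in mouse 3592. The homeostatic microglia markers *P2ry12*, *Tmem119*, *Sall1*, *Cx3cr1* and *Siglech* were called lower in IL beside *Siglece* in each genotype, with median log2 fold changes of -0.99 in Ctrl and -1.05 in the cKO. With the block, 5 were called lower in Ctrl and 4 in the cKO, and the part of this in the *Siglece* difference was not tested.

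*Cd33*, whose human counterpart is linked to Alzheimer's disease risk, was the most abundant of the 10 in CPM. It was at 281, 323, 365 and 321 CPM in Ctrl CL and at 189.6, 228, 316 and 220.2 CPM in Ctrl IL. The IL library of mouse 3546 reached into the CL range, although IL was lower within each mouse. The log2 fold change was -0.38 ± 0.15, which did not pass (adjusted p = 0.168). It passed with the block (adjusted p = 0.018) and in a joint fit of both genotypes that took mouse as random (-0.36, adjusted p = 0.0080). In the cKO it was at 316, 289 and 326 CPM in CL and at 201, 197 and 195 CPM in IL. These groups were apart, the 3 IL values lay within 6 CPM of each other, and *Cd33* fell by 0.56 ± 0.10 on the log2 scale (adjusted p = 0.0079).

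*Siglecf*, an inhibitory Siglec best known from eosinophils, was at 36.5, 33.3, 38.7 and 38.6 CPM in Ctrl CL and at 22.9, 20.6, 29.4 and 22.0 CPM in Ctrl IL. All IL libraries were lower. Its log2 fold change of -0.55 ± 0.15 had adjusted p = 0.057, and 0.011 with the block. In cKO CL it was at 73.2 and 76.4 CPM in mice 788 and 791 and at 36.5 CPM in mouse 3592, and in cKO IL at 49.0, 33.0 and 25.1 CPM. The CL library of mouse 3592 lay at the Ctrl level, and the groups overlapped. The log2 fold change was -0.68 ± 0.33 (adjusted p = 0.18). It passed with the block (-0.75, adjusted p = 0.025) and without the CL library of mouse 3592 (-1.02, adjusted p = 0.021). Leaving out any other library gave -0.93 to -0.40, none of which passed, with the smallest change without the IL library of mouse 3592 (adjusted p = 0.46). Of 5 eosinophil markers, none was called in Ctrl and 1 was called lower in the cKO, and with the block 2 and 4 were called lower. The part of these cells in the *Siglecf* change was not tested. Across the mice with both hemispheres, *Siglece*, *Siglecf* and *Cd33* were each lower in IL in 6 of 6.

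*Clec5a* encodes MDL-1, an activating receptor that signals through *Tyrobp*. It was at 154, 172, 181 and 154 CPM in Ctrl CL and at 119, 115, 135 and 119 CPM in Ctrl IL. The groups were apart, and IL was lower in 4 of 4 Ctrl mice, with a log2 fold change of -0.36 ± 0.14 (adjusted p = 0.18, and 0.023 with the block). In the cKO it was at 116, 119.7 and 92.4 CPM in CL and at 124, 113 and 109 CPM in IL. These ranges overlap, and the log2 fold change was 0.17 ± 0.14 (95% interval -0.15 to 0.48).

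*Clec12a* encodes MICL, an inhibitory receptor that binds uric acid crystals from dead cells. In Ctrl it was at 37.6, 25.2, 30.2 and 15.0 CPM in CL and at 14.4, 8.70, 22.6 and 10.6 CPM in IL. IL was lower within each mouse, while the groups overlapped. The log2 fold change was -0.84 ± 0.35 (adjusted p = 0.196, and 0.025 with the block). In the cKO it was at 8.75, 8.73 and 22.0 CPM in CL and at 12.4, 9.04 and 12.7 CPM in IL. Mouse 3592 alone had a CL value within the Ctrl CL range, and the log2 fold change was -0.00 (95% interval -0.72 to 0.71).

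**Figure D4:**
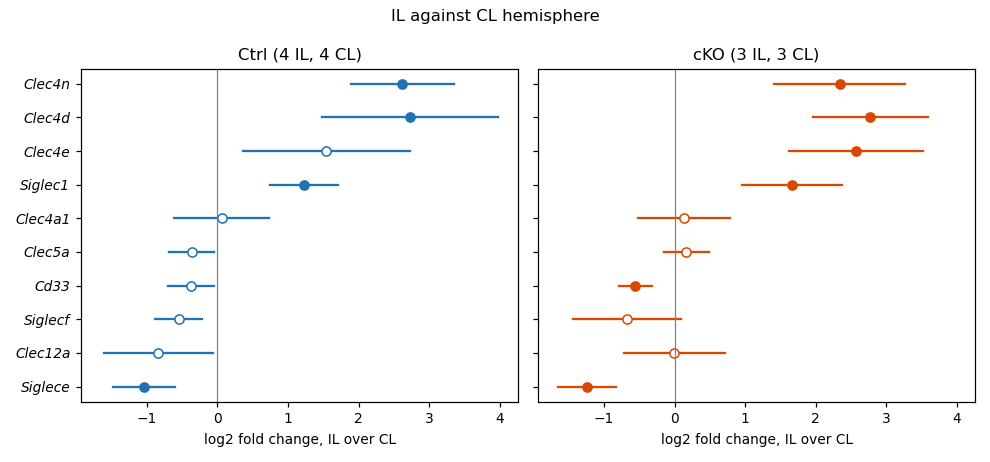
Log2 fold change of IL over CL for the 10 genes in Ctrl (left, 4 libraries a group) and cKO (right, 3 libraries a group), on a shared axis. Points are limma estimates with 95% intervals, filled where the gene was called without the block; *Clec4n*, *Clec4d* and *Siglec1* are called higher and *Siglece* lower in both genotypes.

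The levels of the receptors relative to each other were compared per length, as CPM per kb of the joined exons of each gene. In Ctrl CL, *Clec5a* (43.0 ± 3.57 CPM per kb, SD, n = 4), *Cd33* (41.5 ± 4.41) and *Siglece* (39.0 ± 6.56) led and did not differ beyond their spread. *Siglecf* (13.2 ± 0.912) and *Clec4n* (12.1 ± 3.15) followed, again within their spread. *Siglec1* was the lowest with 1.62 ± 0.12 CPM per kb. In Ctrl IL, *Clec4n* led with 74.9 ± 22.1 CPM per kb, ahead of *Clec5a* (31.7 ± 2.31), *Cd33* (30.7 ± 7.0) and *Clec4d* (29.4 ± 13.0), which did not differ beyond their spread. In cKO CL the order differed from Ctrl CL, with *Cd33* (39.9 ± 2.49, n = 3) ahead of *Clec5a* (28.5 ± 3.86) and *Siglece* (27.5 ± 5.41), and the gap from *Cd33* to *Clec5a* exceeded their spread. The order of the leading 3 in cKO IL was that of Ctrl IL, with *Clec4n* at 55.0 ± 17.7, *Clec5a* at 30.1 ± 2.12 and *Cd33* at 25.4 ± 0.392 CPM per kb (n = 3). Joined exons can be longer than the transcripts in use, which lowers a value per kb.

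The second question was whether the cKO differed from Ctrl in these receptors. In IL, 0 of the 10 genes were called, against 0.658% of 16873 genes tested, and 3 had an unadjusted p under 0.05. Without the IL library of mouse 3546 it was also 0 of 10. *Siglec1* was at 34.8 to 41.0 CPM in cKO IL and at 20.1 to 42.4 CPM in Ctrl IL. With single libraries left out, its log2 difference in IL was 0.39 to 0.63, with adjusted p from 0.051 to 0.95 by limma. In CL, 0 were called, against 0.875% of 16570 genes, and 4 had an unadjusted p under 0.05. The groups did not overlap for 1 gene in IL (10.3% of all genes) and for 1 gene in CL (10%). The median log2 difference over the 10 was -0.21 in IL and -0.47 in CL, beside 0.01 and -0.06 over all genes.

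In IL the gene without overlap was *Siglece*. The cKO IL values of 16.3 to 22.4 CPM lay below the Ctrl IL values of 26.5 to 41.9 CPM, and the log2 difference was -0.70 (95% interval -1.14 to -0.26, adjusted p = 0.24). In CL the corresponding difference was -0.51 (-0.93 to -0.08, adjusted p = 0.39), where the cKO library of mouse 3592 was above the lowest Ctrl library. The gene without overlap in CL was *Clec5a*, with 92.4 to 119.7 CPM in the cKO and 154 to 181 CPM in Ctrl. The log2 difference was -0.60 ± 0.17 (adjusted p = 0.19). A joint fit of the 14 libraries that took the mouse as a random effect gave a value that passed, at -0.58 (adjusted p = 0.031). In IL the *Clec5a* difference was -0.06 (95% interval -0.33 to 0.21).

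For *Siglecf*, cKO minus Ctrl was positive without passing, at 0.66 ± 0.25 in CL (adjusted p = 0.38) and at 0.55 ± 0.23 in IL (adjusted p = 0.54). The CL libraries of mice 788 and 791, at 73.2 and 76.4 CPM, were higher than any other library, whereas mouse 3592 was at 36.5 CPM, within the Ctrl range of 33.3 to 38.7 CPM. Without the CL library of mouse 3592 the CL difference was 1.03 and passed (adjusted p = 0.027), and without any other library it was 0.48 to 0.71 and did not pass. Eosinophil markers are given beside these values. Their sum over 5 genes (*Epx*, *Prg2*, *Ccr3*, *Ear1* and *Ear2*) was 12.2 CPM in mouse 788 and 34.2 CPM in mouse 791, and it was highest, at 87.3 CPM, in the CL library of mouse 3592, which had the lowest *Siglecf* of the cKO CL libraries. *Epx* and *Ear1* were at 0 in the Ctrl IL library of mouse 3546. The part of eosinophils in the *Siglecf* difference was not tested. *St8sia6*, a sialyltransferase named here after its values were seen, had the same order as *Siglecf* in the cKO CL libraries, with 55.8, 59.3 and 15.3 CPM against 12.3 to 22.3 CPM in Ctrl CL.

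*Clec12a* (-1.05, 95% interval -1.89 to -0.20, adjusted p = 0.36) and *Clec4e* (-1.197, -2.40 to 0.0044, adjusted p = 0.51) had the largest negative differences in CL, and neither passed. Both had their highest Ctrl CL value in mouse 3541 and their highest cKO CL value in mouse 3592. These had the highest neutrophil, infiltrating monocyte and eosinophil sums among the CL libraries of their genotype. The part of the sorted cell mixture in these differences was not tested. The intervals for *Clec4d* (-1.84 to 0.56 in CL and -1.55 to 0.38 in IL) and *Clec4n* (-0.998 to 0.68 and -1.196 to 0.35) span a wide range, so moderate differences were not detectable at this number of libraries. *Cd33* had the narrowest interval of the 10 in CL, from -0.39 to 0.27.

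**Figure D5:**
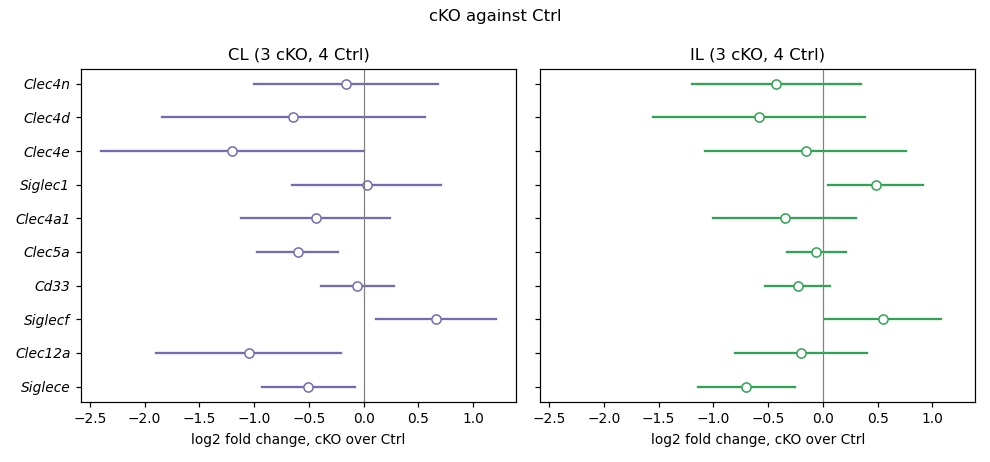
Log2 difference of cKO from Ctrl for the 10 genes in CL (left) and IL (right), 3 cKO and 4 Ctrl libraries each, on a shared axis. Points are limma estimates with 95% intervals, all open because none was called; the intervals of *Clec5a*, *Clec12a* and *Siglece* in CL and of *Siglece* in IL lie below 0, and those of *Siglecf* in both and of *Siglec1* in IL lie above it, all before adjustment.

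The third question was whether the IL against CL difference depended on the genotype. The interaction was called for 0 of the 10 genes and for 0% of 18476 genes tested, of which 481 had an unadjusted p under 0.05. This fit took the 14 libraries as independent, without the mouse. Among the 10, *Clec5a* alone had an unadjusted p under 0.05, with IL minus CL larger by 0.54 ± 0.19 in the cKO (95% interval 0.12 to 0.95, adjusted p = 0.9999 by limma). The intervals of the interaction were wide for *Clec4d* (-1.63 to 1.73) and *Clec4e* (-0.64 to 2.71), and narrowest for *Cd33* (-0.56 to 0.21). With mouse as a random effect, 3 genes were called for the interaction, none of them among the 10. Over all alternative settings the adjusted p of the *Clec5a* interaction was at least 0.499 by limma.

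Other genes of the same families were examined as lists. Their counts stand beside 6.58% of all genes called in Ctrl and 22.4% in the cKO, or 20.5% and 13.5% with the block. Of 5 other Siglecs, 4 were tested. *Siglech*, a microglial Siglec that couples to *Tyrobp* and is itself one of the 5 homeostatic microglia markers, fell by 1.23 on the log2 scale in Ctrl (adjusted p = 0.0069) and by 0.98 in the cKO (adjusted p = 0.0088). *Cd22*, an inhibitory Siglec best known from B cells, rose by 1.15 in Ctrl (adjusted p = 0.045) and by 0.79 in the cKO (adjusted p = 0.018), the latter call being lost with the block (adjusted p = 0.084). *Cd22* was at 10.6 to 57.1 CPM over the 14 libraries. With the block, *Mag*, the Siglec of myelin, was also called lower in Ctrl (-0.53, adjusted p = 0.012), and *Siglech* alone was called in the cKO.

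Of 45 other C-type lectins, 44 were in the table and 31 were tested. In Ctrl, 6 rose and 7 fell, and the median log2 fold change was -0.08, beside -0.04 over all genes. With the block, 6 rose and 10 fell, the 3 added being *Clec10a*, *Mrc1* and *Cd209a*. The largest increases were those of *Cd72* (1.98), an inhibitory receptor, *Olr1* (1.76), a receptor for oxidised LDL, *Cd69* (1.43), an early activation antigen, and *Clec2l* (1.22). The largest decreases were those of *Cd209b* (-2.17), *Mgl2* (-1.91), *Cd209f* (-1.65) and *Cd209g* (-1.55), genes of glycan-binding receptors of macrophages and dendritic cells. The adjusted p values of these 8 were 0.0025 to 0.0305. Markers of border-associated macrophages, a list that shares *Mrc1* with the lectins, moved beside them in Ctrl. *Cbr2* was called lower (-0.90, adjusted p = 0.0496), and with the block *Lyve1* (-1.28, adjusted p = 0.0072) and *Mrc1* (-0.95, adjusted p = 0.010) were too, while *Cd163* and *Pf4* were not called. The part of these cells in the decreases was not tested. In the cKO, 5 rose and 5 fell, led by *Cd72* (2.22), *Cd69* (1.89), *Olr1* (1.71) and *Clec2l* (1.02) and by *Mgl2* (-1.93), *Cd209b* (-1.67), *Cd209f* (-1.45) and *Clec4a2* (-0.90). With the block, 4 of 32 tested rose and 6 fell. The calls of *Clec2l* (adjusted p = 0.055), *Clec2i* and *Cd209d* were then lost, and *Clec7a*, *Mrc1* and *Cd209g* were added. Between genotypes, *Mrc2*, an endocytic collagen receptor, was lower in cKO CL by 2.0 ± 0.39 (8.71 against 35.1 CPM, adjusted p = 0.045), and no other gene of the list was called in CL or IL. The 5 border-associated macrophage markers had a median log2 difference of -1.02 in CL, beside -0.06 over all genes, and none was called. The part of these cells in the *Mrc2* difference was not tested.

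The signalling partners were examined next. Of 18 activating adaptors and kinases, 1 rose and none fell in Ctrl, and 4 rose and 1 fell in the cKO. With the block these became 3 and 1 in Ctrl and 2 and 0 in the cKO. In both genotypes these counts are close to the shares of all genes called. *Vav3*, an exchange factor downstream of Syk, rose in Ctrl (1.39, adjusted p = 0.010) and in the cKO (1.53, adjusted p = 0.017). In the cKO, the Src-family kinase *Fgr* (1.202), the adaptor *Fcer1g* (0.46) and the adaptor *Pik3ap1* (0.46) also rose and *Nfatc1* fell by 0.40, with adjusted p from 0.0052 to 0.0463. The calls of *Fcer1g* (adjusted p = 0.099), *Pik3ap1* (0.110) and *Nfatc1* (0.069) were lost with the block. *Fcer1g* was at 428 to 487 CPM in cKO CL and at 594 to 610 CPM in cKO IL. In Ctrl it was at 474 to 699 CPM in CL and at 867, 827, 147 and 739 CPM in IL, so that the IL library of mouse 3546 alone was below the CL range.

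Of 12 inhibitory phosphatases and kinases, *Dok2*, an adaptor that restrains kinase signalling, rose by 0.71 in Ctrl (adjusted p = 0.050) and by 0.94 in the cKO (adjusted p = 0.042), and *Pag1*, a membrane anchor of the kinase Csk, fell by 0.96 (adjusted p = 0.020) and by 0.92 (adjusted p = 0.0049). The remaining 10 were not called in either genotype, whereas the block gave 2 higher and 2 lower of the 12 in Ctrl. *Ptpn6*, the phosphatase that the inhibitory motifs recruit, was at 528 to 671 CPM in Ctrl CL and at 455 to 563 CPM in Ctrl IL, ranges that overlap.

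Genes that make, trim or recycle sialic acid, the Siglec ligand, went in both directions. In Ctrl, 3 of 25 tested rose and 4 fell, against 6.58% of all genes, and with the block 6 rose and 8 fell, against 20.5%. *Npl*, a lyase that breaks sialic acid down, rose by 1.02, *St3gal1* by 0.90 and the lysosomal sialidase *Neu1* by 0.64, whereas the sialyltransferases *St3gal3* (-1.42), *St3gal6* (-1.39), *St8sia6* (-1.24) and *St3gal5* (-0.80) fell. The adjusted p values were 0.0031 to 0.0307. In the cKO, 4 rose and 4 fell, against 22.4% of all genes. *St3gal1* (1.21), *Npl* (1.02), *Neu1* (0.67) and the synthase *Nans* (0.44) rose, and *St3gal6* (-0.98), *St3gal5* (-0.79), the epimerase *Gne* (-0.53) and the acetyltransferase *Casd1* (-0.49) fell, with adjusted p from 0.0018 to 0.0225. *Nans*, *Gne* and *Casd1* were not calls with the block (adjusted p = 0.051 to 0.108), whereas *St8sia6* was then called lower (-1.07, adjusted p = 0.028), so that 3 rose and 3 fell, against 13.5%. Between genotypes, *St8sia1* was higher in cKO CL by 1.35 ± 0.24 (6.94 against 2.04 CPM, adjusted p = 0.026), and no gene of the list was called in IL.

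For the 6 genes called in at least 1 comparison without the block, the most alike patterns over the 14 libraries were sought among 9753 genes with a mean log2(CPM + 1) of at least 3, by the root mean square difference of log2 values after each gene's own mean was subtracted. *Clec4n* was nearest to *Gm49339* (0.31), *Vim* (0.31) and *Slc7a11* (0.33), *Clec4d* to *Ctla2a* (0.45), *Vim* (0.48) and *Anxa2* (0.49), and *Clec4e* to *Anxa2* (0.35), *Pla2g7* (0.42) and *Cd24a* (0.43). *Vim* and *Anxa2* each occurred for 2 of these neighbours on chromosome 6. *Siglec1* was nearest to *Slfn5* (0.27), *Sdc4* (0.31) and *Sdc3* (0.33). *Siglece* was nearest to *Il16* (0.18), *Zfp869* (0.20) and *Acvr2b* (0.20), and *Cd33* to *Zmym2* (0.07), *Plscr3* (0.09) and *Fam120b* (0.09). These are descriptions over libraries that share hemisphere and genotype.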

How the data were processed

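RNA of CD11b+ cells was sequenced from 14 Smart-Seq v4 libraries. Per the labels, reads were mapped with STAR to mm10 in Partek 8.0. The authors deposited the values under the name raw counts, but each library sums to 1e+06, so the deposited values are CPM. Between 79.0% and 83.5% of values under 100 reads were whole multiples (tolerance 0.03) of a step per library, whose size gave the depth, and tests for whole counts were therefore not used. The level of the targeted gene, the sum of the B cell markers and 1 microglia marker of the list, left out whatever its values, are not reported here. Tables of the authors' own comparisons (fold changes, p-values) were not used. All columns of samples were mapped.

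Values were scaled with an unweighted trimmed mean of M-values (30% and 5% trimmed; factors 0.879 to 1.15), and log2(CPM + 1) was fitted with limma 3.58.1 (R 4.3.3; empirical Bayes with trend) on the libraries compared. Fold changes on this scale understate changes of low genes. Genes entered with the CPM of 10 reads at median depth (0.288 to 0.353 CPM) in at least the number of libraries of the smaller group. Counts rest on Benjamini-Hochberg adjustment over all genes tested. Libraries are separate mice or hemispheres, with the mouse number as replicate. Across genes, same-mouse deviations from group means correlated at 0.182 to 0.608 in all 6 pairs (median 0.413; other 19 pairs -0.536 to 0.503, median -0.215), so the numbers were taken to pair the hemispheres, with values from a block given where the call of a receptor changes and counts from it for gene lists. Gene symbols matched 33802 of 33939 identifiers.

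The members and gene lists were chosen with earlier results of these data known. Named were all 10 members, up to 4 higher and 4 lower called genes per list and comparison, list genes called between genotypes, defining markers, and the 3 most alike genes per called member. The fits were tested on simulated data. Python 3.11.15 served for sequences and figures.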

Additional observations from a re-analysis of the deposited data

Results flagged for a closer look

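In Ctrl, where groups hold 4 libraries, 154 groups of values (77 genes, the receptors among them) were examined for a library whose gap to the rest exceeds Dixon's 95% critical value, which chance gives in about 1 in 20 groups. Genes of the lists that the report does not name were not examined. Among the 10 receptors this was met once, by *Siglec1* at 12.9 CPM in the CL library of mouse 3545, against 10.96 to 11.3 CPM in the others. The remaining cases among the genes examined belong to others than the receptors. The eosinophil gene *Ccr3* was at 1.26 CPM in the Ctrl IL library of mouse 3551 (others 0.796 to 0.825), the monocyte gene *Vcan* was at 6.80 CPM in that of mouse 3545 (3.10 to 3.6), and the rest belong to mouse 3546. Its IL library had *Cd209b* at 6.05 CPM (others 1.37 to 1.62), *Cd209f* at 19.0 CPM (5.35 to 7.58), *Clec4a3* at 60.7 CPM (35.2 to 38.6), the adaptor *Hcst* at 1.64 CPM (8.28 to 9.01), *St3gal3* at 15.1 CPM (4.13 to 5.0), *St3gal5* at 193 CPM (157 to 160.3), *Clec10a* at 16.4 CPM (6.57 to 7.85), *Mrc1* at 184 CPM (42.7 to 62.3), *Cd209a* at 31.1 CPM (6.29 to 9.33) and *Lyve1* at 29.3 CPM (5.72 to 9.44). Its CL library had *Cd209f* at 60.5 CPM (20.3 to 26.1).

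On the scaled log2 values, *Clec5a* was lower in IL than in CL in each of 4 Ctrl mice and higher in each of 2 cKO mice that gave both hemispheres. In CPM as deposited, cKO mouse 791 was lower in IL (113 against 119.7 CPM), so that the direction in that mouse depends on the scaling. The mean IL minus CL difference was lower in Ctrl than in the cKO, by -0.53 on the log2 scale. The interaction in the fit of 14 libraries, which did not include the mouse, was 0.54 ± 0.19 (SE) with adjusted p = 0.9999 by limma.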

How the results depend on the processing

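No estimate of a called receptor changed sign under any alternative, and 4 of 138 alternative values of called receptors lost the call, all of *Clec4d* in Ctrl (adjusted p = 0.0551 without a filter on low values, and 0.0568 to 0.0670 without the CL library of mouse 3546 or the IL library of 3541 or 3545). The counts of receptors called under leave-one-out were 3 to 4 (IL against CL in Ctrl), 6 to 7 (in the cKO), 0 to 1 (cKO against Ctrl in CL, 1 being *Siglecf* without the CL library of mouse 3592), 0 (in IL) and 0 (interaction). With the mouse number as a replicate block, 9 receptors and 3358 genes were called in Ctrl and 2261 genes in the cKO. With all 14 libraries and mouse as a random effect, 9 receptors and 4258 genes were called between hemispheres in Ctrl, 1 receptor and 290 genes between genotypes in CL, 190 genes in IL and 3 genes for the interaction. Without a filter on low values, 582 genes were called between hemispheres in Ctrl, 69 between genotypes in IL and 89 in CL. With 10 reads in every library, 86 were called in CL. Leaving out single libraries gave 487 to 1413 genes between hemispheres in Ctrl, where 1078 were called with all libraries, 1882 to 3537 in the cKO (3746 with all), 46 to 284 between genotypes in IL (111 with all), 70 to 165 in CL (145 with all), and 0 to 1 for the interaction. Without the IL library of mouse 3546, 284 genes were called between genotypes in IL. The cause of these shifts was not tested. The paired analysis used only the 4 Ctrl and 2 cKO mice that gave both hemispheres. It changed no call of a receptor other than those given with the results.

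The deposited CPM without further scaling added *Siglecf* (adjusted p = 0.030) and *Clec5a* (adjusted p = 0.038) to the Ctrl calls, 10 reads in every library added *Siglecf* (adjusted p = 0.0499), the random effect added *Siglecf* in the cKO (adjusted p = 0.033), and upper-quartile scaling or a pseudocount of 0.1 changed no call of a receptor. The lowest value of a receptor in any library was 2.02 CPM, of *Clec4d* in the cKO CL library of mouse 788.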
